A study of Mus musculus with 20 samples.

Results

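Brain-infiltrating and tumor-infiltrating neutrophils of the same kind of mice were compared across all genes, with 4 libraries from the brain and 4 from the tumor, 8 of the 20 RNA-seq libraries of the series. The libraries were chosen by their labelled tissue, and none of their values entered the choice. The mice were C57BL/6 animals with pancreatic ductal adenocarcinoma (PDAC), started by inoculation of KPC cells, a line from genetically engineered mouse pancreatic tumors driven under Pdx1-Cre. All 8 libraries thus came from tumor mice, taken at 10 d.p.i. The other 12 libraries, from circulating and liver neutrophils of tumor mice and from circulating neutrophils of sham mice that received PBS, entered the scaling and the estimate of spread, and sums of a few gene lists in them are set beside those of brain and tumor without a test. According to the methods the study used animals of both sexes aged 7 to 12 weeks, and sex and age are not given per library. Blood was drawn, the vessels were flushed with PBS and live single cells with high CD11b and high Ly6G were sorted. Brain and tumor were both digested with collagenase, the tumor for longer, and only the brain suspension passed a Percoll step to remove myelin, so that tissue and dissociation cannot be told apart. SMART-Seq cDNA was made from 250 pg of RNA per library. The brain libraries carry the replicate numbers 2, 3, 4 and 5 and the tumor libraries 1, 2, 3 and 5, and values are given in that order throughout. No source used here ties a number to an animal, and nothing states that libraries of the 2 tissues came from different mice. The libraries were taken as independent, so that p-values speak only of the spread among them, which may be technical.

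Neutrophils mature in the bone marrow, where they pack azurophil, secondary and tertiary granules in sequence as transcription of each set of granule proteins is switched on and off. Cells that leave the blood release part of this cargo and begin to transcribe chemokines, cytokines and other effectors in the tissue. The healthy brain holds few of them, mostly at its borders such as the meninges and the choroid plexus, while those in solid tumors have been described as suppressors of T cells and as a source of angiogenic factors.

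The tumor libraries stood partly against their label, and this bears on every result. Ly6g, the gene of the sorted surface protein (mm10, chromosome 15, 75155240 to 75159126), measured 472, 229, 396 and 357 CPM (counts per 1000000 after TMM scaling) in the brain and 1.43, 9.28, 2.72 and 13.2 CPM in the tumor. The 4 tumor libraries all lay below every brain library. Itgam, which encodes the other sorted protein, CD11b, had 453, 415, 412 and 374 CPM in the brain and 263, 286, 270.002 and 356 CPM in the tumor, and Ptprc, the gene of the leukocyte antigen CD45, 1503 ± 383 and 504 ± 115 CPM (SD, n = 4). Both groups thus held leukocyte and myeloid transcripts, while the transcript of the gated protein Ly6G was scarce in the tumor. Krt19, a keratin of ductal epithelium, showed the opposite order, with 0.0224, 0, 1.04 and 0.562 CPM in the brain and 639, 648, 1011 and 242 CPM in the tumor. Itgam did not pass without brain replicate 2, 3, 4 or 5 or tumor replicate 1, 2 or 3 (adjusted p = 0.0701 to 0.15, edgeR).

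Summed over 16 markers, ductal tumor epithelium reached 55.2, 35.2, 106 and 52.4 CPM in the brain libraries and 2547, 2973, 4230.5 and 1231 CPM in the tumor libraries. Macrophage markers summed to 2147, 7177, 2633 and 1738 CPM and 9854, 9719.5, 8998 and 6431 CPM, with brain replicate 3 far above the other brain libraries. Choroid plexus markers summed to 39.4, 108, 2397 and 133 CPM in the brain, where replicate 4 stood apart, and to 38.6, 29.8, 43.9 and 6.28 CPM in the tumor. The part of other cells in the results below was not tested, and in such bulk samples fewer cells of a type and less RNA per cell cannot be told apart. Depth was even, with 49942921 to 54472378 counts per brain library and 50284744 to 52657231 per tumor library. Genes with a count numbered 15536 to 19409 in the brain, most in replicate 3, and 17238 to 19594 in the tumor, most in replicates 3 and 1. Because those 3 libraries stood apart, each leading count was also taken without brain replicate 3 and tumor replicates 1 and 3, which leaves 3 brain and 2 tumor libraries. No library repeated another, since the chi-square between replicates averaged 168 to 589 per gene over the 12 pairs within the groups, far above counting error.

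**Figure D1:**
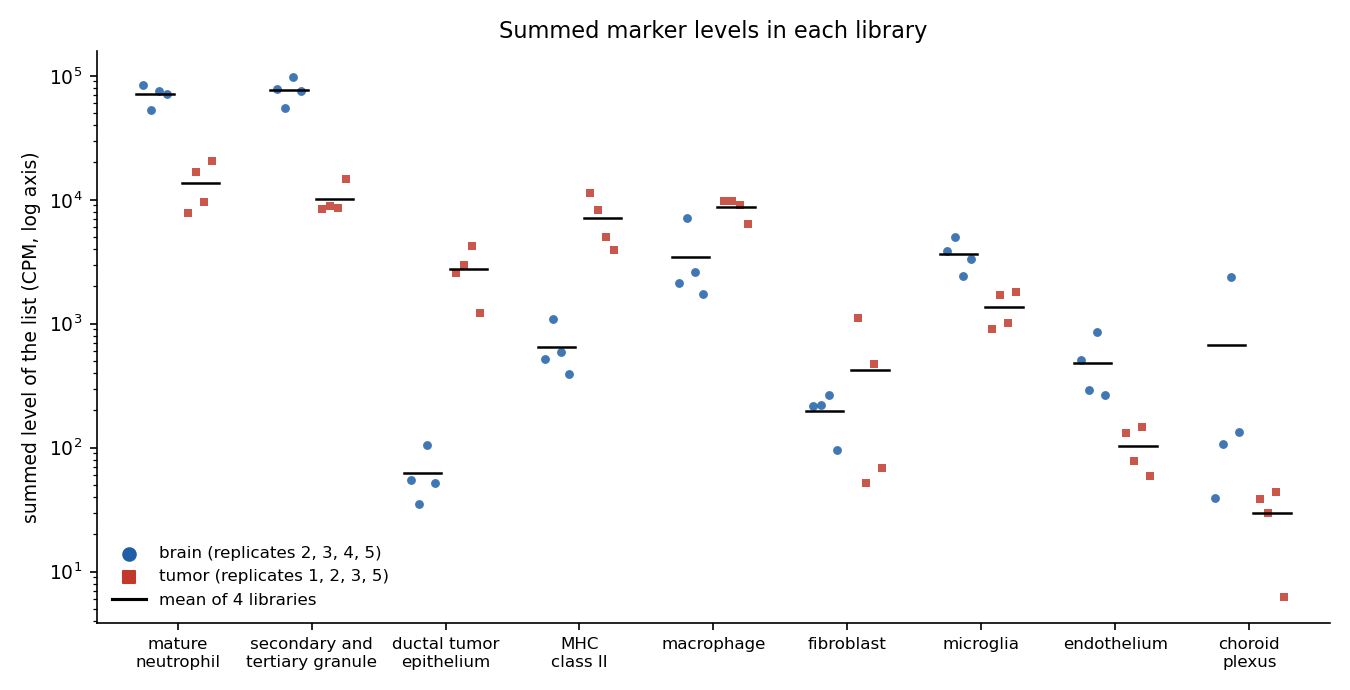
Summed level of 9 marker lists in each library (CPM, log axis), with brain libraries as circles, tumor libraries as squares and the mean of 4 libraries as a bar. Neutrophil and granule lists lay higher in all 4 brain libraries, ductal epithelium and MHC class II in all 4 tumor libraries, and the choroid plexus sum rested on brain replicate 4.

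Of 28762 genes tested, 773 (2.69% of all tested) were called higher in the brain and 1098 (3.82%) were called lower, at an adjusted p under 0.05 and a log2 fold change of at least 2 in size. Without a fold threshold 2455 (8.54%) passed higher and 1976 (6.87%) lower, and among the 13495 genes at 1 CPM or more in the higher group these shares were 17.3% and 13.8%, or 4.82% and 7.34% with the fold threshold. The counts given for gene lists use this adjusted p without a fold threshold and are to be read against those shares. Where a list below has 0 members in a direction by edgeR, which was so for 20 directions in 19 lists, 18 of these also had 0 at an unadjusted p under 0.05 and 19 had 0 by DESeq2, and the others had 1. The median log2 fold change was 0.0 over all genes and -0.07 over the genes at 1 CPM or more. Of the called genes, 593 of the 773 and 933 of the 1098 had no overlap between the 4 brain and 4 tumor libraries, against 9.08% and 10.2% of all genes in these directions. Genes called higher took 16.9% to 23.4% of the CPM in the brain libraries and 2.33% to 4.30% in the tumor libraries, and genes called lower took 0.459% to 0.715% and 5.09% to 11.2%.

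The split of calls depended on the scaling. With upper-quartile factors in place of TMM the log2 fold change shifted by a median of 0.45 over the 10870 genes at 1 CPM or more in both groups, and 1321 genes were called higher and 859 lower, 60.6% higher against 41.3%. With DESeq2's size factors the shift was -0.12 and the counts were 689 and 1217. Of the 253 genes named here 241 passed the test. With upper-quartile factors 29 of these kept their direction but no longer passed, and Atp5b alone turned direction and did not pass either. With the 3 libraries that stood apart left out, 433 genes were called higher and 585 lower, of which 347 and 454 were among the genes called with all libraries. Atp5b did not pass without brain replicate 3 or 5 or tumor replicate 1 or 3 (adjusted p = 0.056 to 0.127, edgeR).

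**Figure D2:**
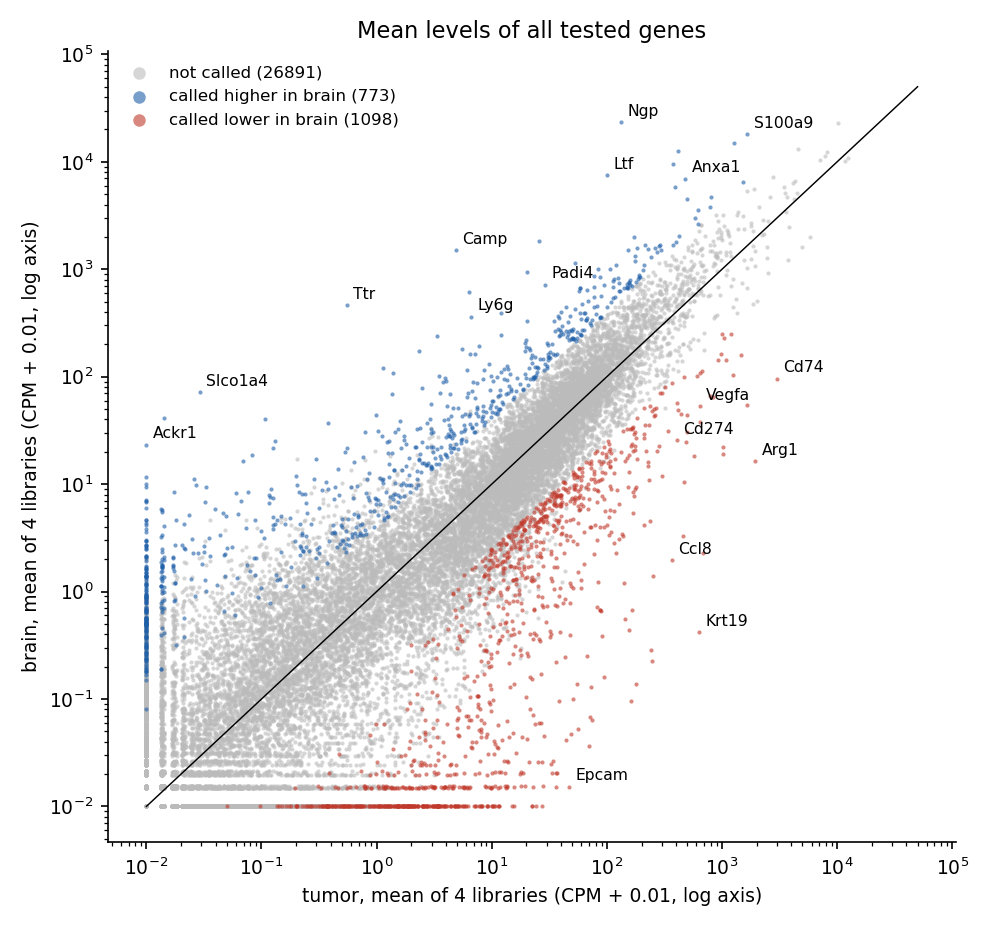
Mean level of the 28762 tested genes in the brain (y axis) and the tumor (x axis), as CPM plus 0.01 on log axes, with the line of equal levels. The 773 genes called higher in the brain lie above the line, with granule genes such as Ngp, Camp and Ltf farthest from it at high level. The 1098 called lower lie below it, with Krt19 among the farthest, and Arg1 also lies well below it.

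Genes of secondary and tertiary granule proteins, the antimicrobial and matrix-degrading cargo packed late in maturation, were higher in the brain nearly throughout. Of 20 measured members 19 passed the test higher and 0 lower, with a median log2 fold change of 3.19 against 0.0 over all genes. The exception, the chitinase-like gene Chil3, had 3535, 3304, 7625 and 6176 CPM in the brain and 5224, 2382, 3975 and 6526 CPM in the tumor and did not pass (edgeR log2 fold change 0.19, adjusted p = 0.92). In the absence of the 3 libraries that stood apart 18 passed higher and 0 lower.

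Ngp, a cathelicidin-related granule protein, had 22259, 12411, 36229.6 and 22709 CPM in the brain and 76.8, 103, 114 and 241 CPM in the tumor. Camp, the mouse cathelicidin, had 1873, 538, 2459 and 1184 and 4.69, 5.04, 4.02 and 5.76 CPM. Ltf, which encodes the iron-binding protein lactoferrin (mm10, chromosome 9, 111019271 to 111042767), had 8819, 4759.6, 10377 and 6009 and 60.3, 115, 93.6 and 136 CPM. In all of them the lowest brain library, replicate 3, stood more than an order of magnitude above the highest tumor library, with log2 fold changes of 7.45 for Ngp (SE, the standard error, 0.68, edgeR adjusted p = 1.56e-07), 8.28 for Camp (SE 0.71, adjusted p = 6.90e-08) and 6.21 for Ltf (SE 0.70, adjusted p = 1.61e-06). Itgb2l, an integrin beta chain of neutrophils, had 637, 390.4, 804 and 623 CPM in the brain and 2.92, 7.01, 4.24 and 11.4 CPM in the tumor. Mmp8, the neutrophil collagenase, was nearly constant in the brain at 9296, 9471, 9044 and 10016 CPM, while the tumor libraries ranged widely, at 113, 242, 228 and 906 CPM (edgeR log2 fold change 4.67, adjusted p = 4.39e-07). The siderophore-binding protein gene Lcn2 (5851 ± 2090.2 and 389 ± 395 CPM, SD, n = 4), the glycoprotein gene Lrg1 (4555 ± 242 and 492 ± 331 CPM) and the gelatinase gene Mmp9 (6450.2 ± 743 and 1512 ± 511 CPM) were also higher in each brain library than in each tumor library. The smallest of these changes was that of Mmp9, at a log2 fold change of 2.09 (standard error 0.27).

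The azurophil granule, which is packed first, did not move as a set. Of 11 members 1 passed higher and 2 lower (median log2 fold change 0.14), a share near the background. Serpinb1a, an inhibitor of neutrophil serine proteases, was the member higher in the brain, with 583, 378, 862 and 699.6 CPM against 125, 111, 191 and 89.5 CPM. The study names Serpinb1a with proteins of granule secretion and NET formation, not with granule components. Ctsc, the cathepsin that activates those proteases, was lower, with 96.3, 293, 105 and 75.1 CPM against 2219, 823, 916 and 365 CPM (edgeR log2 fold change -2.92, adjusted p = 0.000138), and brain replicate 3 was the highest of its group. The serine protease gene Prtn3 was lower too, at 7.17 ± 4.17 against 25.4 ± 7.79 CPM (SD, n = 4). Myeloperoxidase, Mpo, had counts mainly in brain replicates 2 and 3, with 38.2, 30.3, 0 and 0 CPM in the brain and 0.0298, 0.729, 0 and 0.0169 CPM in the tumor, and did not pass (adjusted p = 0.128, edgeR). Prtn3 did not pass without tumor replicate 1 (adjusted p = 0.058, edgeR). Azurophil members higher in the brain numbered 2 by DESeq2, with upper-quartile scaling, with the 8 libraries fitted alone or with the lane as a factor. Those lower in the brain numbered 1 with upper-quartile scaling, without tumor replicate 1 or without the 3 libraries.

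Promoter sequences are shown for Ltf and Ly6g, because both were among the largest rises and both hold a C/EBP motif, the site of the family of transcription factors that act in granulocyte differentiation. Each line gives the 250 bases before the gene's start in RefSeq (GRCm38.p6), 5′ to 3′ on the gene's strand, with the motif in capitals. RefSeq starts both genes 21 bases inside the coordinates of the deposited annotation given for them here, so the last 21 bases of each line lie within the gene as that annotation draws it.
Ltf (chr9:111019042-111019291, plus strand): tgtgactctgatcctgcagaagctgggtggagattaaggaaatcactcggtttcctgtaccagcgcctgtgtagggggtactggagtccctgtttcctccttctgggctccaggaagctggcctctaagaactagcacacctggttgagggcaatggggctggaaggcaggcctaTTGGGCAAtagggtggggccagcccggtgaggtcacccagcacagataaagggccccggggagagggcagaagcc
Ly6g (chr15:75155011-75155260, plus strand): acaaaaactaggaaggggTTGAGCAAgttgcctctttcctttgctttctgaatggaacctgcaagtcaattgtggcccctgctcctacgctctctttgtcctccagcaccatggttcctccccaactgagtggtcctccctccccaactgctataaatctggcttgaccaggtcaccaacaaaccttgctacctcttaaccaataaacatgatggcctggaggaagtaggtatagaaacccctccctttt
The letters searched, on both strands, were TTGCNNAA, and both matches are on the opposite strand. The first base of the match lies 75 bases before the start in Ltf and 232 bases before it in Ly6g. Of the 20 granule genes 17 had a RefSeq promoter, and 5 of these (29.4%) held the motif, namely Ltf, Ngp, Lcn2, Mmp8 and Adam8. Of the 25 mature neutrophil genes 20 had one, and 5 (25.0%) held it, against 10.8% of all 27025 promoters. A match describes these letters in this window and is not a measured binding site.

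Genes of mature circulating neutrophils followed the granule genes. Of 25 members 24 passed higher in the brain and 0 lower, with a median log2 fold change of 2.46, and without the 3 libraries 21 and 0. Il1r2, the interleukin-1 decoy receptor, was the member that did not pass, with 2033, 3936, 3386 and 4349 CPM in the brain and 1874, 4541, 2661 and 5349 CPM in the tumor. For Ly6g the log2 fold change was 5.77 (SE 0.59, edgeR adjusted p = 4.58e-07). S100a9 and S100a8, the subunits of calprotectin, had 18102 ± 5733 and 14867 ± 4849 CPM in the brain and 1661 ± 882 and 1261 ± 626 CPM in the tumor (SD, n = 4). Retnlg, a resistin-like secreted protein, had 14293, 8437, 14009 and 13518 CPM in the brain, lowest in replicate 3, and 68.8, 409, 284 and 892 CPM in the tumor (edgeR log2 fold change 4.93, adjusted p = 3.80e-07). The changes of Mxd1, Csf3r and Trem1 were smaller, at 1.72, 1.25 and 1.08 on the log2 scale. Csf3r encodes the receptor for G-CSF and Trem1 an activating receptor of myeloid cells. For Csf3r, brain replicate 4 (1923 CPM) lay only just above tumor replicate 2 (1911 CPM).

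Regulators of granulocyte and monocyte development split. Of 22 members 7 passed higher in the brain and 9 lower. The higher ones were Cebpb, Cebpd, Cebpe, Klf2, Klf6, Spi1 and Stat3, and among the lower ones were Bhlhe40, Runx1, Runx3, Irf5, Irf8, Klf4, Hif1a and Tcf7l2, of which Irf8 and Klf4 are known as factors of the monocyte and macrophage lineage. Klf2 had 3587, 2115, 3146 and 3178 CPM in the brain and 384, 491, 479 and 976 CPM in the tumor (edgeR log2 fold change 2.37, SE 0.27, adjusted p = 1.63e-06). Spi1, the gene of the myeloid factor PU.1, was higher with 1603 ± 249 against 505 ± 117 CPM (SD, n = 4). Bhlhe40 showed the reverse, with 41.9, 50.8, 110.2 and 60.9 CPM in the brain and 741, 834, 707 and 858 CPM in the tumor, without overlap. The rises of Cebpb, Klf6 and Stat3 were small, at 0.84, 0.59 and 0.83 on the log2 scale, and the counts were 4 higher and 8 lower without the 3 libraries. Cebpb did not pass without brain replicate 5 or tumor replicate 1 or 3, Klf6 without brain replicate 2, 3, 4 or 5 or tumor replicate 1, 2 or 3, Stat3 without brain replicate 3 or tumor replicate 3 and Irf8 without tumor replicate 1 (adjusted p = 0.0525 to 0.21, edgeR). Granulocyte transcription factor members higher in the brain numbered 4 without tumor replicate 3.

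Subunits of the NADPH oxidase, which makes superoxide, and genes of granule release and of neutrophil extracellular traps (NETs) were mostly higher in the brain, 14 of 20 members with 1 lower and a median log2 fold change of 1.26. Padi4, the enzyme that citrullinates histones when NETs form, had 987, 608, 656 and 621 CPM in the brain and 42.2, 28.2, 21.9 and 24.5 CPM in the tumor. All brain libraries lay above all tumor libraries, with replicate 2 the highest, and the log2 fold change was 4.62 (SE 0.36, edgeR adjusted p = 3.09e-08). The cytosolic oxidase subunit Ncf4 rose by 1.61, the GTPase gene Rac2 by 2.11 and the membrane subunits Cybb and Cyba by 1.91 and 0.96 on the log2 scale. The member that was lower, Rab27b, encodes a vesicle GTPase and had 0, 0.368, 0.276 and 0 CPM in the brain and 33.6, 20.7, 43.1 and 10.7 CPM in the tumor. With the 3 libraries removed 12 members were higher and 1 lower.

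Adhesion and motility genes, which carry neutrophils across vessel walls, were mostly higher. Of 24 adhesion and motility genes 13 were higher and 4 lower (median log2 fold change 0.82). Itgb2, the gene of the integrin beta chain shared by the leukocyte integrins, had 1909.6, 1662, 1457 and 1646 CPM in the brain and 702, 516, 427 and 549 CPM in the tumor. Selplg, the gene of the selectin ligand PSGL-1, and Itgb2 rose by 1.97 and 1.61 on the log2 scale, the actin regulators Coro1a and Arpc1b by 1.98 and 1.05 and the hyaluronan receptor gene Cd44 by 1.31. Itgam itself rose by 0.49 (adjusted p = 0.0308, edgeR), which is close to the shift between scalings. Icam1, an adhesion molecule induced by inflammatory cytokines, was lower in the brain, with 28.3, 39.8, 25.7 and 35.8 CPM against 162, 186, 116 and 137 CPM.

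Of 18 Fc, complement and formyl peptide receptor genes 10 were higher and 5 lower (median log2 fold change 0.68). Pirb, a paired immunoglobulin-like inhibitory receptor, had 1524, 1667, 1392 and 1519.8 CPM in the brain and 286, 295, 213 and 388 CPM in the tumor, and the formyl peptide receptor gene Fpr1 had 699.6 ± 73.4 and 179 ± 82.6 CPM (SD, n = 4). The complement receptor gene C5ar1 and the common Fc receptor chain Fcer1g rose by 1.27 and 0.86 on the log2 scale. Fcgr2b, the inhibitory Fc receptor, was lower, with 69.004, 119.6, 109 and 96.6 CPM against 717, 378, 478 and 309 CPM (edgeR log2 fold change -2.26, adjusted p = 0.0002). Of 27 pattern recognition genes 9 were higher, among them Tlr2 (1.36 on the log2 scale), the adaptor Myd88 (1.35) and Nlrp12 (1.81), and 4 were lower. Clec4n, which encodes the fungal lectin receptor Dectin-2, was the most abundant of the lower ones, with 38.7, 79.02, 39.4 and 40.2 CPM in the brain and 455, 419.9, 347 and 428 CPM in the tumor, and Clec5a, another lectin receptor, fell by 1.04 on the log2 scale. Without the 3 libraries 3 were higher and 4 lower, and with upper-quartile scaling 14 and 1. Fc and complement receptor members lower in the brain numbered 3 without tumor replicate 1. Pattern recognition members lower in the brain numbered 2 without brain replicate 5 or tumor replicate 5 or with the replicate number as a block.

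Leukotriene genes were the higher members of the eicosanoid list. Of 18 members 5 were higher and 4 lower. Alox5, Alox5ap and Lta4h, which together make leukotriene B4, rose by 1.62, 2.60 and 2.38 on the log2 scale, the leukotriene B4 receptor gene Ltb4r1 by 1.88 and the phospholipase gene Pla2g7 by 1.23. Alox5ap, for example, had 669, 543, 733 and 787 CPM in the brain and 76.2, 119, 82.6 and 174 CPM in the tumor. Ptgs2, the gene of the prostaglandin-forming cyclooxygenase COX-2, had 1071, 682, 364 and 538 CPM in the brain and 2185, 1569.8, 1151 and 1625 CPM in the tumor, lower in every brain library (edgeR log2 fold change -1.30, adjusted p = 0.0263), and the lower count was 0 with upper-quartile scaling and 1 without the 3 libraries. Ptgs2 did not pass without brain replicate 4 or 5 or tumor replicate 1 (adjusted p = 0.0647 to 0.0761, edgeR). Eicosanoid members lower in the brain numbered 0 with upper-quartile scaling, 1 without tumor replicate 1, 2 without brain replicate 5 and 7 by DESeq2.

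**Figure D3:**
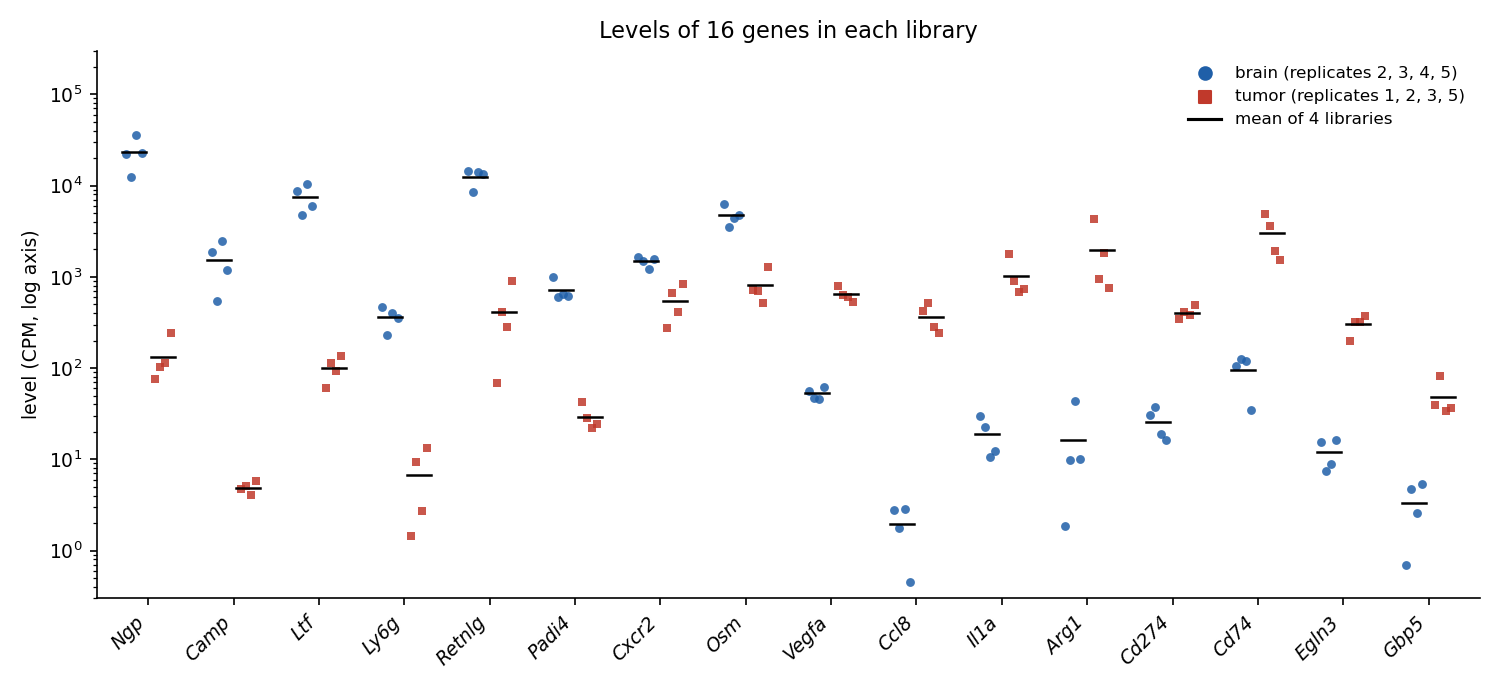
Level of 16 genes in each library (CPM, log axis), with brain libraries as circles, tumor libraries as squares and the mean of 4 libraries as a bar. The first 8 genes were higher in all 4 brain libraries and the last 8 were higher in all 4 tumor libraries.

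Chemokines, the secreted ligands that attract leukocytes, were lower in the brain as a group. Of 28 members 0 passed higher and 20 lower, with a median log2 fold change of -4.30 (-4.26 with genes without a count in 1 group at their bound). Ccl8, a ligand of monocyte receptors, had 2.76, 1.76, 2.87 and 0.454 CPM in the brain and 425, 516, 279 and 240.1 CPM in the tumor (edgeR log2 fold change -7.54, SE 0.72, adjusted p = 2.49e-07). Ccl3 and Ccl4, attractants of monocytes and T cells, had 104 ± 16.8 and 101 ± 19.1 CPM in the brain and 1241 ± 242 and 607 ± 294 CPM in the tumor (SD, n = 4). Ccl2, the ligand of Ccr2, had 25.6, 13.9, 18.3 and 10.4 CPM in the brain and 448, 29.6, 183 and 68.3 CPM in the tumor, and the tumor libraries spread far more than the brain libraries. Cxcl1, a ligand of the neutrophil receptor Cxcr2, had 8.603, 4.97, 13.7 and 8.47 CPM in the brain and 560.5, 19.9, 68.7 and 52.5 CPM in the tumor, so that tumor replicate 1 held most of its signal. Ccl9 fell by 3.42 on the log2 scale. Among the members that did not pass were Cxcl2, a second ligand of Cxcr2, with 11293, 7139, 10228 and 12012 CPM in the brain and 8001, 11583, 8927 and 18018 CPM in the tumor, and Ccl6, with 2845 ± 827 and 2276 ± 936 CPM. When the 3 libraries were left out, 11 members were lower and 1 was higher.

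Of 18 chemokine receptors 2 were higher and 3 lower. Cxcr2 was higher in the brain, with 1639, 1494, 1232 and 1582 CPM against 272, 672, 415 and 825 CPM (edgeR log2 fold change 1.44, SE 0.27, adjusted p = 0.00056). Ccrl2, which binds the attractant chemerin, was lower, with 1229 ± 222 against 3748 ± 666 CPM (SD, n = 4). Ccr2, a chemokine receptor of monocytes and some neutrophils that the study examined, had 10.3, 6.67, 0.106 and 5.14 CPM in the brain and 326, 50.7, 67.99 and 13.98 CPM in the tumor. It was lower in every brain library (edgeR log2 fold change -4.37, adjusted p = 0.00662). Its call was lost in 2 of the 16 alternatives, among them the one without the 3 libraries (adjusted p = 0.18, edgeR). Cxcr6 had no count in the brain and 3.87, 0.131, 0.465 and 0.692 CPM in the tumor, mostly in replicate 1 (at least 81.5-fold lower against 3 counts over the group). Cxcr6 did not pass without brain replicate 2, 3, 4 or 5 or tumor replicate 1 (adjusted p = 0.0505 to 0.0647, edgeR). Chemokine receptor members higher in the brain numbered 4 by DESeq2, 5 with the replicate number as a block, 6 without tumor replicate 5 and 7 with upper-quartile scaling, and those lower in the brain numbered 1 with the replicate number as a block or without the 3 libraries.

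Of 26 cytokines of myeloid cells 9 were lower and 5 higher (median log2 fold change -2.72, and -2.26 with bounds). The share of higher ones was near the 17.3% of genes at 1 CPM or more that passed higher. Osm, the gene of oncostatin M, had 6341, 3505, 4372 and 4756 CPM in the brain and 720.4, 701, 516 and 1294 CPM in the tumor, each brain library above each tumor library (edgeR log2 fold change 2.55, SE 0.34, adjusted p = 1.36e-05). The interleukin-1 family divided by member. Il1a had 30.1, 22.7, 10.7 and 12.4 CPM in the brain and 1759.7, 896, 678 and 732 CPM in the tumor (edgeR log2 fold change -5.74, SE 0.83, adjusted p = 3.69e-05), and the receptor antagonist gene Il1rn 159 ± 44.8 and 1465 ± 59.9 CPM (SD, n = 4). Il1b did not pass, at 11226 ± 4068 and 7835 ± 2967 CPM. Spp1, the gene of osteopontin, was lower with 25.3, 58.7, 102 and 31.8 CPM in the brain against 3569.7, 861, 1680.5 and 440.4 CPM in the tumor, and Tnf and Csf1 fell by 2.07 and 1.97 on the log2 scale. In the absence of the 3 libraries 1 member was higher and 8 were lower.

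Growth factors were lower for 7 of 22 members and higher for 1 (median log2 fold change -1.82). Vegfa, the main angiogenic factor, had 56.3, 47.6, 45.7 and 61.7 CPM in the brain and 801, 635, 600.3 and 524 CPM in the tumor. The groups did not overlap and the log2 fold change was -3.60 (SE 0.28, edgeR adjusted p = 3.09e-08). Hbegf, an epidermal growth factor receptor ligand, had 2.23 ± 1.48 and 78.04 ± 14.6 CPM (SD, n = 4), and Areg, another such ligand, and the vasodilator gene Adm fell by 4.47 and 4.73 on the log2 scale. Thbs1, the matrix protein thrombospondin, passed narrowly, with 386, 110.4, 239.9 and 176 CPM against 2028, 442, 1019 and 676 CPM (adjusted p = 0.0499, edgeR). Hgf was the member that rose, from 8.803 ± 0.896 CPM in the tumor to 46.98, 20.1, 18.6 and 20.8 CPM in the brain, highest in replicate 2. With the 3 libraries removed 3 of the 22 were lower. Areg did not pass without brain replicate 4 or tumor replicate 1 or 3, Adm without brain replicate 2, 3 or 5 or tumor replicate 3 and Thbs1 without brain replicate 3, 4 or 5 or tumor replicate 1 or 3 (adjusted p = 0.0535 to 0.161, edgeR). Growth factor members lower in the brain numbered 4 without tumor replicate 3.

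Effectors described for suppressive myeloid cells of tumors were lower for 10 and higher for 6 of 22 members. Arg1, which breaks down arginine (mm10, chromosome 10, 24915221 to 24927484), had 1.84, 9.94, 43.3 and 10.03 CPM in the brain and 4295, 937, 1809 and 749 CPM in the tumor (edgeR log2 fold change -6.90, SE 1.10, adjusted p = 0.000104). The highest brain library, replicate 4, lay far below the lowest tumor library, replicate 5. Cd274, the gene of PD-L1, which restrains T cells, had 30.6, 37.5, 18.9 and 16.3 CPM and 343, 411, 377 and 489 CPM. Siglecf, a sialic acid receptor of eosinophils that has also been described on tumor neutrophils in mice, had 44.02 ± 8.39 and 264 ± 74.6 CPM (SD, n = 4). Of the higher members, Wfdc17 rose by 2.26, the checkpoint gene Vsir by 1.32 and the annexin gene Anxa2 by 1.14 on the log2 scale. Nos2, the inducible nitric oxide synthase, had 26.3, 102, 93.1 and 101 CPM in the brain and 80.4, 89.3, 108 and 200.4 CPM in the tumor and did not pass.

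MHC class II genes, which present peptides to CD4+ T cells, were lower in the brain for 9 of 11 members and higher for 0 (median log2 fold change -3.60). Cd74, the invariant chain, had 106, 124, 118 and 34.98 CPM in the brain and 4919, 3573, 1938 and 1527 CPM in the tumor (edgeR log2 fold change -4.96, SE 0.46, adjusted p = 1.62e-07). The class II chains H2-Ab1, H2-Aa and H2-Eb1 fell by 5.51, 4.96 and 5.47 on the log2 scale, the peptide exchange factor H2-DMa by 3.60 and the protease Ctss, which trims the invariant chain, by 1.97. No brain library reached a tumor library for any of these. Without the 3 libraries 8 were lower. Macrophage markers moved with these genes, with 5 of 16 lower and the sums given above, while B cell markers were uneven, with sums of 1249, 97.7, 42.7 and 272 CPM in the tumor libraries against 100.3, 112, 49.2 and 38.8 CPM in the brain, and dendritic cell sums of 121, 66.9, 118 and 84.1 against 69.1, 148, 38.5 and 30.7 CPM overlapped. Their part in the class II result was not tested. Macrophage members lower in the brain numbered 2 without brain replicate 2, 3 without brain replicate 4 or 5 and 8 without brain replicate 3 or by DESeq2.

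Genes induced by interferon-gamma were lower for 22 of 27 members and higher for 1, with a median log2 fold change of -3.69. Gbp5, a guanylate-binding protein, had 0.695, 4.68, 2.55 and 5.32 CPM in the brain and 39.6, 81.5, 33.6 and 36.4 CPM in the tumor. Cxcl10, an attractant of T cells, had 0.762, 1.51, 2.59 and 0.0216 CPM and 147, 84.4, 43.04 and 60.1 CPM. For both, every tumor library lay above every brain library (edgeR log2 fold change -3.85 for Gbp5, adjusted p = 0.00153, and -6.09 for Cxcl10, adjusted p = 3.32e-05). Among the most abundant members Gbp2, Gbp7, Igtp and Irgm1, GTPases of cell defense, fell by 1.91, 1.15, 1.72 and 1.37 on the log2 scale. The exception was Il18bp, which neutralizes interleukin-18, with 114, 122, 136 and 126 CPM in the brain and 40.7, 77.9, 38.4 and 32.6 CPM in the tumor. Gbp, Irgm and Tgtp genes have close paralogs, between which the counting could have split reads. When the 3 libraries were left out, 19 were lower and 0 higher.

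The promoters of Gbp5 and Cxcl10 are shown because they hold the interferon-stimulated response element (ISRE), in capitals. The RefSeq start of Gbp5 lies 2956 bases inside the gene as the deposited annotation draws it, so its line lies within that gene, while the starts of Cxcl10 coincide.
Gbp5 (chr3:142496684-142496933, plus strand): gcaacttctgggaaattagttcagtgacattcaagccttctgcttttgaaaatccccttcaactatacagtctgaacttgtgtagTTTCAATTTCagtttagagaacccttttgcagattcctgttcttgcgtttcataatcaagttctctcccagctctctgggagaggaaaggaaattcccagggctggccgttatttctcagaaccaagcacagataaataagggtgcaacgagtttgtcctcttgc
Cxcl10 (chr5:92348890-92349139, minus strand): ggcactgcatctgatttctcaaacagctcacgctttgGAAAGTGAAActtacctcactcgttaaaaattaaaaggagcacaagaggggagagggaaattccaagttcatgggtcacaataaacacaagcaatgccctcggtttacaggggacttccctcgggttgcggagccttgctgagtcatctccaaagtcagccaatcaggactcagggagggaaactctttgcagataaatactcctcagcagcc
The letters searched on both strands were GAAA, any 2 bases and GAAA again, and in Gbp5 the match is on the opposite strand. Of the 27 interferon-gamma genes 16 had a RefSeq promoter and 11 of these (68.8%) held the element, as did 10 of 22 genes (45.5%) of the type I interferon list, against 3.46% of all promoters.

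Of 28 type I interferon genes 10 were lower and 4 higher, with a median log2 fold change of -0.60. The share of higher ones was near the 17.3% of genes at 1 CPM or more that passed higher. Sp100 rose by 1.36 and Oas3, an RNA sensor, by 1.89 on the log2 scale, and the ubiquitin ligase Trim30a by 1.01. Ifit1, which binds foreign RNA, was lower, with 23.4, 37.2, 8.63 and 6.53 CPM in the brain and 36.04, 73.2, 89.7 and 75.8 CPM in the tumor, and brain replicate 3 overlapped tumor replicate 1. Rsad2, the antiviral enzyme viperin, had 66.7, 30.1, 7.503 and 14.4 CPM in the brain and 62.7, 83.7, 127 and 119 CPM in the tumor, where brain replicate 2 overlapped (edgeR log2 fold change -1.72, adjusted p = 0.0282), and Zbp1 fell by 1.02. The lower count was 4 with upper-quartile scaling, and without the 3 libraries 8 were lower and 0 higher. Trim30a did not pass without brain replicate 2 or 3 or tumor replicate 1 or 3, Rsad2 without brain replicate 3, 4 or 5 or tumor replicate 3 or 5 and Zbp1 without brain replicate 2, 4 or 5 or tumor replicate 1 or 2 (adjusted p = 0.0518 to 0.111, edgeR). Interferon type I members higher in the brain numbered 2 without brain replicate 2 or 3 or tumor replicate 1 or 3, and those lower in the brain numbered 4 without brain replicate 5, 5 without brain replicate 4 or tumor replicate 2 or with the 8 libraries fitted alone and 6 without tumor replicate 3.

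MHC class I presentation genes were lower for 9 and higher for 1 of 18 members (median log2 fold change -0.60), and the count of lower ones was 3 with upper-quartile scaling. B2m, the light chain, had 1619 ± 331 and 2458 ± 361 CPM (SD, n = 4), and the chaperones Calr and Pdia3 fell by 2.05 and 1.19 on the log2 scale. Of the heavy chains, H2-D1 had 6413 ± 893 CPM in the brain against 4147 ± 623 in the tumor (edgeR log2 fold change 0.63, adjusted p = 0.0231) and H2-Q6 49.6 ± 23.01 against 127 ± 56.4 CPM. Class I genes are near-identical copies, so their single values are uncertain, and Psme2, a proteasome activator, fell by 0.70. B2m did not pass without brain replicate 3 or 5 or tumor replicate 1, H2-D1 without brain replicate 2, 3 or 5 or tumor replicate 1 or 3 and Psme2 without brain replicate 5 or tumor replicate 1 or 2 (adjusted p = 0.0501 to 0.139, edgeR). MHC class I members higher in the brain numbered 0 without the 3 libraries and 3 with upper-quartile scaling, and those lower in the brain numbered 5 without the 3 libraries.

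Targets of hypoxia-inducible factors and glycolytic enzymes were lower for 20 of 34 members and higher for 4 (median log2 fold change -1.07). Egln3, the oxygen-sensing prolyl hydroxylase PHD3, had 15.3, 7.39, 8.7996 and 16.3 CPM in the brain and 196, 319.6, 322 and 372 CPM in the tumor (edgeR log2 fold change -4.66, SE 0.38, adjusted p = 3.86e-08). Bnip3, a receptor for removal of mitochondria, had 47.1, 57.4, 49.9 and 48.6 CPM in the brain and 288, 276, 277 and 234 CPM in the tumor, tight in both groups. The abundant glycolytic enzymes had smaller fold changes, with falls of 0.84 for Ldha, 0.68 for Eno1, 1.00 for Aldoa and 0.61 for Gapdh on the log2 scale. None of these falls passed with upper-quartile scaling (adjusted p = 0.191 to 0.782, edgeR). Those of Ldha, Eno1 and Gapdh also did not pass without the 3 libraries (adjusted p = 0.0765 to 0.285, edgeR). Part of the pathway went the other way. Slc2a3, which encodes the glucose transporter GLUT3, had 1804, 1686, 1172 and 1594 CPM in the brain and 78.5, 248, 129 and 271 CPM in the tumor (edgeR log2 fold change 3.11, SE 0.35, adjusted p = 1.49e-06). Gpi1 and Hk3, enzymes of the first steps, and Pfkfb4 rose by 1.24, 1.92 and 2.05 on the log2 scale. In the absence of the 3 libraries 15 members were lower and 4 higher, and with upper-quartile scaling 13 and 6. Gapdh did not pass without brain replicate 3 or tumor replicate 1 (adjusted p = 0.0572 to 0.0585, edgeR).

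The promoters of Egln3 and Bnip3 are shown because they hold the core of the hypoxia response element, in capitals. In Bnip3 the motif matches on both strands in overlapping positions, so that the capitals span a longer run. The RefSeq start of Bnip3 lies 13 bases inside the gene of the deposited annotation, and that of Egln3 lies before it.
Egln3 (chr12:54203875-54204124, minus strand): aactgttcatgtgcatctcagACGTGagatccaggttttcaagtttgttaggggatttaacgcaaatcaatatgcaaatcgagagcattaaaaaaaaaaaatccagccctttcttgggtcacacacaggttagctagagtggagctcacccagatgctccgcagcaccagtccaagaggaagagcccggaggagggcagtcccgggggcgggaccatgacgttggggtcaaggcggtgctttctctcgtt
Bnip3 (chr7:138909507-138909756, minus strand): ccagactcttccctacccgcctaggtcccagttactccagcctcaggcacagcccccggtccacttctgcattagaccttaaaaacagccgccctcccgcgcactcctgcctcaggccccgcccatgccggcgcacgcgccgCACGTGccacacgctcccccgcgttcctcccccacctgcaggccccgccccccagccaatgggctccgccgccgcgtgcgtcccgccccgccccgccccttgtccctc
The letters searched were ACGTG on both strands. Of the 34 members 32 had a RefSeq promoter and 19 (59.4%) held them, against 18.5% of all promoters, 17.6% of the 17 granule genes with one and 6.25% of the 16 interferon-gamma genes with one.

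Nuclear genes of oxidative phosphorylation changed little. Of 31 members 1 was higher and 7 were lower (median log2 fold change -0.27). The ATP synthase genes Atp5a1, Atp5b and Atp5g1 fell by 0.75, 0.46 and 1.38 on the log2 scale and the complex I genes Ndufv1 and Ndufa9 by 0.89 and 0.82, while Sdhb of complex II rose by 0.47. With upper-quartile scaling the median was 0.21, none was lower and 6 were higher, with Atp5b at 0.02, so the list has no direction that holds across scalings. Of 9 measured genes of the mitochondrial genome none passed in either direction. Ndufa9 did not pass without brain replicate 2, 3 or 4 or tumor replicate 1, 2 or 3 and Sdhb without brain replicate 2, 4 or 5 or tumor replicate 1, 2, 3 or 5 (adjusted p = 0.051 to 0.164, edgeR). Oxidative phosphorylation members higher in the brain numbered 0 without the 3 libraries, and those lower in the brain numbered 0 without the 3 libraries, 3 with the lane as a factor, 4 without brain replicate 3 or tumor replicate 1 or 3 and 12 by DESeq2.

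Genes of the unfolded protein and amino acid response, of heat shock and of the cytoplasmic ribosome were far more often lower than higher in the brain. Of 26 stress and amino acid response genes 12 were lower and 1 was higher (median log2 fold change -1.17). Hspa5, the main chaperone of the endoplasmic reticulum, had 449, 512, 395 and 429.9 CPM in the brain and 1698, 918, 1256 and 1069 CPM in the tumor (edgeR log2 fold change -1.47, adjusted p = 8.57e-06). Calr and Hsp90b1, further chaperones of that compartment, fell by 2.05 and 1.80 and the transcription factor Xbp1 by 0.75, and the growth regulator Sesn2 rose by 0.67. Xbp1 did not pass without tumor replicate 5 and Sesn2 without brain replicate 2, 3 or 5 or tumor replicate 1, 2 or 3 (adjusted p = 0.0669 to 0.103, edgeR). Stress and amino acid response members higher in the brain numbered 0 without the 3 libraries and 3 with upper-quartile scaling, and those lower in the brain numbered 7 with upper-quartile scaling.

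Of 14 heat shock genes 9 were lower and 0 higher (median log2 fold change -1.49). Hspa1b and Hspa1a, near-identical genes of inducible Hsp70, had 18.8, 18.9, 14.01 and 18.9 and 22.1, 19.3, 18.9 and 17.7 CPM in the brain. In the tumor they had 157, 89.6, 160.3 and 191 and 105, 64.9, 105 and 159.8 CPM. The groups did not overlap for either. The cytosolic chaperones Hsp90ab1 and Hsp90aa1 fell by 1.53 and 1.78 and the mitochondrial chaperone Hspd1 by 1.45 on the log2 scale. With the 3 libraries removed 7 of the 14 were lower.

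Ribosomal protein genes were mostly lower in the brain. Of 30 members 26 were lower and 1 was higher, with a median log2 fold change of -1.15. Rplp0 had 124, 93.1, 140.03 and 114 CPM in the brain and 328, 254, 273 and 219 CPM in the tumor, and Rpl3 had 23.9 ± 4.295 and 104 ± 26.7 CPM (SD, n = 4). Rps9 was the one that rose, by 0.76 on the log2 scale. With upper-quartile scaling the median was -0.67 with 14 lower, and without the 3 libraries 11 were lower.

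Signaling genes passed in both directions within their lists, to be read against 17.3% higher and 13.8% lower among genes at 1 CPM or more. Of 26 immediate early genes 6 were higher and 9 lower. Fos, a subunit of the factor AP-1, had 14861, 11419.8, 11427 and 14488 CPM in the brain and 3526, 4389, 3593 and 6750.3 CPM in the tumor (edgeR log2 fold change 1.52, SE 0.35, adjusted p = 0.00419). Dusp1, a phosphatase that limits MAP kinase signaling, had 22741, 23101, 18869.8 and 28071 and 6329, 8215, 8306 and 17937 CPM, where tumor replicate 5 nearly reached the lowest brain library. Smaller rises on the log2 scale were those of Ier2 (0.90), Nr4a1 (0.99) and the mRNA decay factor Zfp36 (0.60). Ier3 went the other way, with 477, 386, 558 and 618 CPM in the brain and 1109, 2147, 2041 and 2743 CPM in the tumor (edgeR log2 fold change -1.98, adjusted p = 3.15e-05), and Atf3, Egr2, Egr3, Nr4a2, Dusp4, Dusp5, Myc and Maff were the other lower members. Without the 3 libraries 0 were higher and 4 lower. Nr4a1 did not pass without brain replicate 2 or tumor replicate 2 or 3, Zfp36 without brain replicate 2, 4 or 5 or tumor replicate 1, 2 or 3, Egr3 without brain replicate 2, Dusp4 without brain replicate 2, 3 or 4 or tumor replicate 1, 2 or 3 and Dusp5 without brain replicate 3, 4 or 5 or tumor replicate 1 (adjusted p = 0.0505 to 0.152, edgeR).

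Of 20 NF-kB genes 3 were higher, a share near the background, and 5 lower (median log2 fold change -0.10, and 0.36 with upper-quartile scaling). The subunit gene Nfkb1 and the coregulator Bcl3 rose by 1.17 and 1.11, and the ubiquitin ligase Birc3 by 0.90 on the log2 scale. Tnfaip3, the feedback inhibitor A20, had 366, 321, 399 and 480.4 CPM in the brain and 1133, 1183, 994 and 2096 CPM in the tumor and was lower (edgeR log2 fold change -1.79, adjusted p = 0.000609), and the kinase gene Ikbke fell by 3.13. Of 17 glucocorticoid and circadian genes 4 were higher and 2 lower. Nr3c1, the glucocorticoid receptor, rose by 1.18, its targets Tsc22d3 and Zbtb16 by 0.98 and 1.56, while its target Sgk1 fell by 1.53 and the clock gene Ciart by 3.83 on the log2 scale. The higher count was 1 without the 3 libraries. Birc3 did not pass without brain replicate 3 or 5 or tumor replicate 1, 2 or 3, Tsc22d3 without brain replicate 2, 3 or 5 or tumor replicate 1, 2 or 3, Zbtb16 without brain replicate 4 or tumor replicate 1, 2 or 3 and Ciart without brain replicate 2, 3, 4 or 5 or tumor replicate 3 or 5 (adjusted p = 0.0505 to 0.11, edgeR). NF-kB members higher in the brain numbered 0 without the 3 libraries and 5 with upper-quartile scaling. Glucocorticoid and circadian members higher in the brain numbered 2 without tumor replicate 1, 2 or 3 or with the 8 libraries fitted alone, and those lower in the brain numbered 0 without the 3 libraries.

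Of 26 survival and death genes 4 were higher and 10 lower (median log2 fold change -0.63). Cdkn1a, the cell cycle inhibitor p21, had 120.3, 107, 169 and 179 CPM in the brain and 813, 981, 734 and 1140.0 CPM in the tumor (edgeR log2 fold change -2.67, adjusted p = 0.00102). The damage response genes Gadd45a and Gadd45b moved apart, with 350.1 ± 95.8 and 219 ± 40.3 CPM in the brain against 101 ± 42.02 and 620.5 ± 173 CPM in the tumor (SD, n = 4), and so did the death genes Bid (log2 fold change 2.05) and Pmaip1 (-1.35). The death receptor gene Tnfrsf1a rose by 1.17. Of 20 cell cycle genes 3 were lower and 0 higher by edgeR, namely the replication genes Pcna, Mcm2 and Mcm3, and 5 were lower and 0 higher by DESeq2. Mcm2 did not pass without brain replicate 2, 3 or 5 or tumor replicate 2 (adjusted p = 0.0608 to 0.0652, edgeR). Survival and death members higher in the brain numbered 2 without the 3 libraries. Cell cycle members lower in the brain numbered 7 with the 8 libraries fitted alone.

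Lysosomal genes were lower for 12 of 24 members and higher for 0 (median log2 fold change -1.14). Ctsb, a lysosomal cysteine protease, had 609.8, 1802, 594 and 716 CPM in the brain and 3647, 1868, 2729 and 1739 CPM in the tumor, so that brain replicate 3 overlapped the tumor libraries. Lamp1, a membrane protein of the lysosome, had 305, 462, 327 and 366 CPM in the brain and 1109, 724, 961 and 689 CPM in the tumor without overlap (edgeR log2 fold change -1.25, adjusted p = 3.83e-05). The proteases Ctsl and Ctsz and the saposin precursor Psap fell by 1.32, 1.37 and 0.94 on the log2 scale. With upper-quartile scaling 6 were lower and 1 was higher, and without the 3 libraries 7 were lower. Ctsl did not pass without tumor replicate 1 (adjusted p = 0.0727, edgeR).

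Of 26 lipid handling genes 2 were higher and 7 lower. Dgat1 and Dgat2, which complete the synthesis of triglycerides, rose by 1.93 and 1.07 on the log2 scale, and Dgat1 had 999.6, 622, 651 and 694 CPM in the brain and 126, 260.3, 122 and 271 CPM in the tumor. Msr1, a scavenger receptor of macrophages, was lower, with 10.9, 46.8, 19.7 and 3.39 and 433, 112, 243 and 89.7 CPM, and Scd2 and Abca1, of lipid desaturation and cholesterol efflux, fell by 3.05 and 1.21. Apoe, a lipid carrier and a macrophage marker, had 829.9, 3372, 1433 and 805 CPM in the brain and 4755, 6276, 5046 and 3697 CPM in the tumor, with brain replicate 3 close to the lowest tumor library. Dgat2 did not pass without brain replicate 2, 3, 4 or 5 or tumor replicate 1, 2 or 3 and Apoe without brain replicate 2 or 5 (adjusted p = 0.0502 to 0.143, edgeR). Lipid handling members higher in the brain numbered 1 without the 3 libraries and 4 with upper-quartile scaling.

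Of 23 redox and iron genes 4 were higher and 8 lower. Slc40a1, the iron exporter ferroportin, had 1315, 1375, 542 and 811 CPM in the brain and 76.8, 126, 113 and 109.5 CPM in the tumor (edgeR log2 fold change 3.25, SE 0.31, adjusted p = 2.24e-07), and the metalloreductase gene Steap4 rose by 2.36. Prdx1, a peroxide-removing enzyme, showed the reverse, with 30.6, 55.8, 60.5 and 34.5 CPM in the brain and 787, 310.5, 488 and 179.5 CPM in the tumor (edgeR log2 fold change -3.28, SE 0.43, adjusted p = 1.16e-05). Hmox1, which breaks down heme, fell by 1.87, while the related enzymes Prdx5 and Gpx1 rose by 0.99 and 0.63. Gpx1 did not pass without brain replicate 2, 4 or 5 or tumor replicate 2, 3 or 5 (adjusted p = 0.0608 to 0.147, edgeR). Redox and iron members lower in the brain numbered 4 without the 3 libraries and 5 with upper-quartile scaling.

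Of 22 protease and matrix genes 3 were higher and 10 lower (median log2 fold change -1.95). Plaur, the urokinase receptor, and the surface protease Adam8 rose by 1.08 and 1.66 on the log2 scale. Fn1, the gene of fibronectin, had 25.3, 31.8, 41.8 and 22.8 CPM in the brain and 1058, 249, 439.9 and 251 CPM in the tumor. Mmp12, the macrophage elastase, had 0.695, 3.95, 13.5 and 0.108 CPM in the brain and 569.8, 59.3, 223 and 98.9 CPM in the tumor, and the membrane protease Mmp14 and the crosslinking enzyme Tgm2 fell by 4.59 and 2.84. When the 3 libraries were left out, 4 were lower. Fibroblast markers, the other usual source of matrix, summed to 215, 219.9, 266 and 96.5 CPM in the brain and 1108, 51.5, 477 and 69.2 CPM in the tumor, where replicates 1 and 3 held most, and their part was not tested. Protease and matrix members higher in the brain numbered 5 with upper-quartile scaling.

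**Figure D4:**
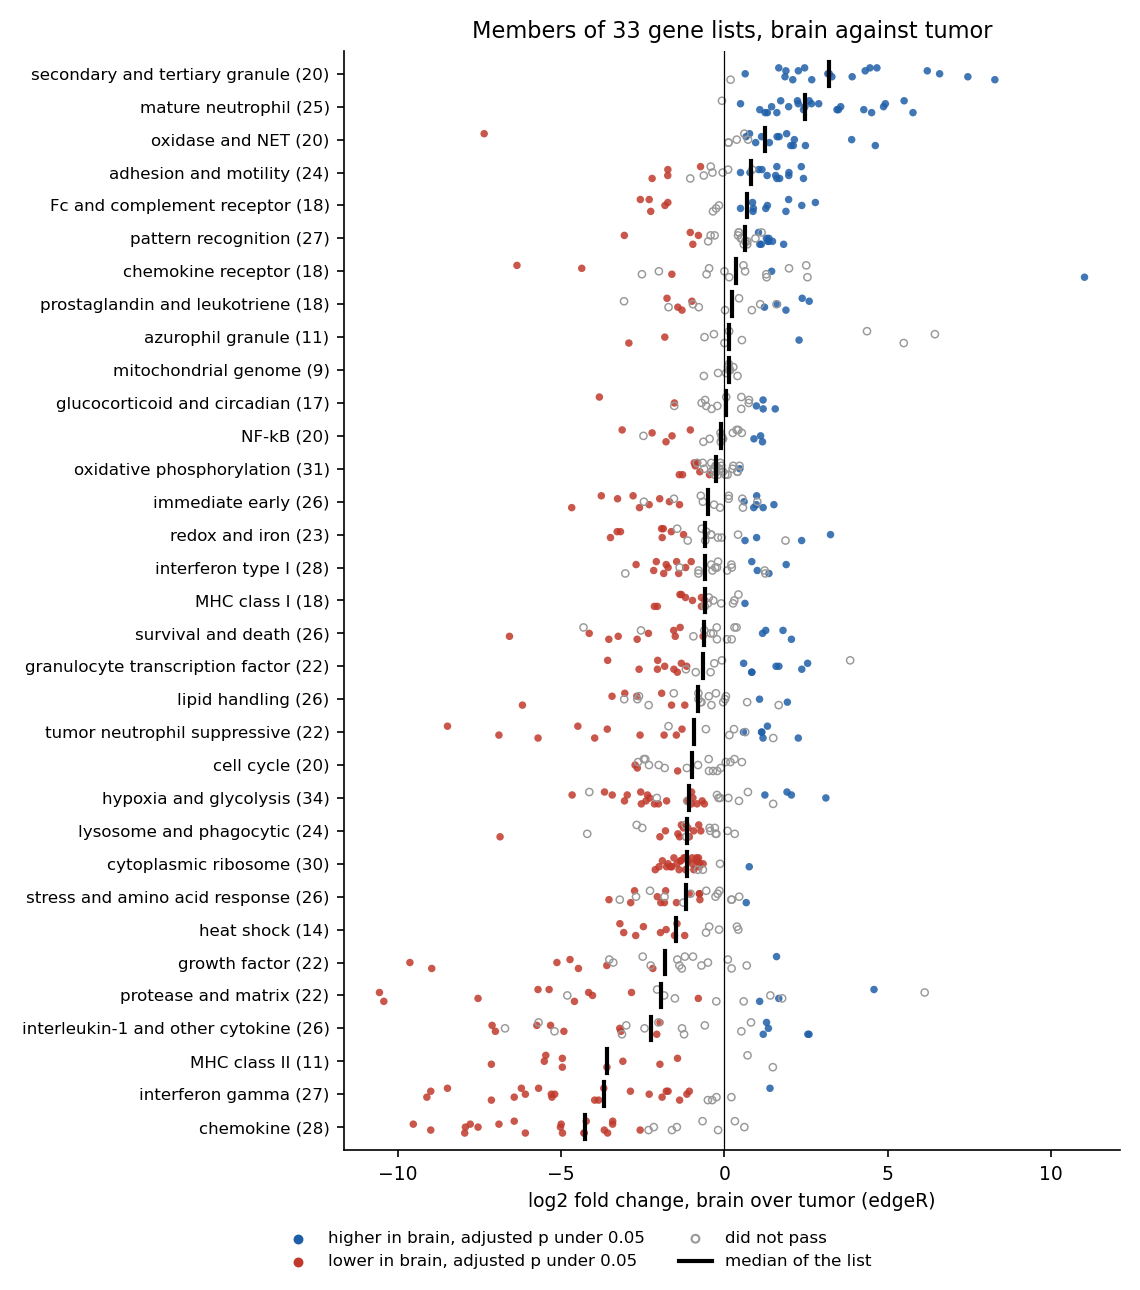
Log2 fold change of each measured member of 33 gene lists, brain over tumor, with the number of members in brackets and the lists ordered by their median (bar). Filled points passed an adjusted p of 0.05, and genes without a count in 1 group are drawn at their bound. Granule and mature neutrophil genes lie to the right and chemokine, interferon-gamma and MHC class II genes to the left.

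Among the largest rises were genes of brain vessels and other brain cells. Slco1a4, an organic anion transporter of the blood-brain barrier, had 66.8, 42.5, 139.7 and 37.4 CPM in the brain and 0.0596, 0, 0 and 0.0169 CPM in the tumor (edgeR log2 fold change 11.72, SE 1.01, adjusted p = 8.23e-07). Ackr1, an atypical chemokine receptor of venules and red cells whose exons overlap Cadm3 (mm10, chromosome 1, 173331886 to 173333750), had 26.3, 5.46, 46.6 and 14.7 CPM in the brain and no count in the tumor, at least 2079-fold higher against 3 counts over the group. Cldn5, a tight junction protein of endothelium, had 42.4, 12.1, 81.2 and 12.4 CPM in the brain and 0.328, 0, 1.15 and 0 CPM in the tumor. Of 16 endothelium markers 7 were higher and 0 lower, with sums of 513, 291, 859.8 and 267 CPM in the brain and 130.4, 77.6, 146 and 59.4 CPM in the tumor, though the general endothelial gene Pecam1 did not pass (50.3 ± 19.7 and 27.8 ± 10.5 CPM, SD, n = 4) except with upper-quartile scaling (log2 fold change 1.31, edgeR adjusted p = 0.00557). Ly6c1 rose by 5.01 on the log2 scale, but its paralog Ly6c2 could share reads with it. Of 10 pericyte and smooth muscle markers 2 were higher, Rgs5 among them (5.24 on the log2 scale). That share was near the 17.3% of genes at 1 CPM or more that passed higher. Myh11 had 49.5, 38.7, 35.5 and 8.08 and 0.0893, 0.146, 2.05 and 9.44 CPM and did not pass except without tumor replicate 5 (edgeR adjusted p = 0.0385). Rgs5 did not pass without brain replicate 2 or 4 or tumor replicate 2, 3 or 5 (adjusted p = 0.0557 to 0.0751, edgeR).

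Ttr, the gene of the transport protein transthyretin and the hallmark of choroid plexus epithelium, had 18.3, 83.4, 1648 and 108 CPM in the brain and 0.357, 0.612, 0.711 and 0.473 CPM in the tumor. The brain libraries lay above all tumor libraries, and replicate 4 held more than an order of magnitude more than any other brain library (edgeR log2 fold change 9.74, SE 1.28, adjusted p = 1.14e-05). Enpp2, the lipid-signaling enzyme autotaxin, had 21.1, 20.4, 664 and 17.2 CPM in the brain, again almost all in replicate 4, and 17.4, 2.098, 2.72 and 0.0169 CPM in the tumor. Of 10 choroid plexus markers 6 were higher and 0 lower. Enpp2 did not pass without brain replicate 4 or tumor replicate 3 (adjusted p = 0.0507 to 0.382, edgeR). Choroid plexus members higher in the brain numbered 1 without brain replicate 4 or tumor replicate 3, 2 without tumor replicate 1 or 2, with the lane as a factor or without the 3 libraries and 3 by DESeq2, with the 8 libraries fitted alone or with the replicate number as a block.

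Siglech, which marks microglia and plasmacytoid dendritic cells, had 41.8, 92.4, 13.4 and 18.5 CPM in the brain and 0, 0, 0 and 0.0169 CPM in the tumor, a ratio of 11497 with a 95% counting interval of 2063 to 454155. Of 12 microglia markers 4 were higher and 0 lower, but the most abundant of them was Selplg, which neutrophils also express. Microglia marker sums were 3654 ± 1071 CPM in the brain and 1363 ± 468 CPM in the tumor (SD, n = 4). They were 5208 ± 675 CPM in the circulation of tumor mice, 3630 ± 575 CPM in that of sham mice and 2859 ± 399.7 CPM in the liver. These other sources were not tested. Of the other brain cells, astrocyte markers were higher for 4 and lower for 1 of 10, oligodendrocyte markers higher for 2 of 10 and neuron markers higher for 1 of 10. The oligodendrocyte share was near, and the neuron share below, the 17.3% of genes at 1 CPM or more that passed higher. Oligodendrocyte sums had means of 252 CPM in the brain, 81.2 in the tumor and 238 in the liver. Means in the circulation were 301 CPM in tumor mice and 559 CPM in sham mice, also without a test. Neuron markers summed to 1.14, 63.1, 11.7 and 5.81 CPM in the brain, most of it in replicate 3, against 6.73, 9.43, 8.91 and 2.97 CPM in the tumor, and Snap25, a synaptic gene, had 0.0896, 14.1, 0.234 and 0 and 0.506, 0.0583, 1.72 and 0.0338 CPM. Clu, a secreted chaperone counted with the astrocyte markers, was lower in the brain (44.1 ± 52.9 against 501 ± 354 CPM, SD, n = 4), and Mbp, a myelin gene that leukocytes also transcribe, was higher (216 ± 93.5 against 53.6 ± 7.93 CPM). Astrocyte members higher in the brain numbered 0 without brain replicate 3 or tumor replicate 2, 3 or 5, with the lane as a factor or without the 3 libraries and 2 with the replicate number as a block, and those lower in the brain numbered 0 without the 3 libraries. Oligodendrocyte members higher in the brain numbered 1 without the 3 libraries. Neuron members higher in the brain numbered 0 without the 3 libraries, and those lower in the brain numbered 1 without the 3 libraries.

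Apod, the lipid carrier apolipoprotein D, which belongs to none of the lists, had 47.3, 22.5, 49.3 and 40.9 CPM in the brain and 0, 0, 0.0137 and 0.371 CPM in the tumor (edgeR log2 fold change 8.71, SE 1.24, adjusted p = 3.07e-05). The other largest rises were Ifitm6, of the family of interferon-induced membrane proteins (1821 ± 677 against 25.5 ± 15.6 CPM, SD, n = 4), the orphan receptor gene Gpr27 (109 ± 39.99 against 1.37 ± 0.827), Scrg1 (175 ± 40.5 against 2.34 ± 2.84) and Smim5 (21.8 ± 9.02 against 0.115 ± 0.187). By difference in CPM Anxa1, an annexin that limits neutrophil migration, was also among the leading genes, with 7429, 5643, 7956 and 6856 CPM in the brain and 458, 449.8, 458 and 549 CPM in the tumor. It was tight in both groups and had the smallest adjusted p of the named genes (edgeR log2 fold change 3.86, SE 0.22, adjusted p = 8.20e-10).

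Many of the largest falls were genes of gastrointestinal and ductal epithelium. Of 16 ductal tumor epithelium markers 14 were lower in the brain and 0 higher, with a median log2 fold change of -7.36 (-7.28 with bounds), and without the 3 libraries 11. Krt19 fell by 10.61 on the log2 scale (SE 1.31, edgeR adjusted p = 5.29e-06) and Krt8 had 0.0448, 0.0774, 4.72 and 4.17 CPM in the brain and 650.2, 704, 1054 and 312 CPM in the tumor. Epcam, the epithelial adhesion molecule, had 1 count over the 4 brain libraries and 32.1, 70.7, 72.99 and 11.7 CPM in the tumor, a ratio of 9222 with a 95% counting interval of 1655 to 364282. Cldn7, a tight junction protein, Hnf4a, a transcription factor of gut and liver epithelium, and Apob, a lipoprotein of the same organs, had no count in the brain. They were at least 1420.3-, 1399.7- and 1731-fold lower there against 3 counts over the group, and Rnase2a, a ribonuclease of eosinophils and macrophages, at least 1519-fold. Lypd8, Cdhr2, Alpi, Vsig1, Tspan8, Dsg2, Ugt2b34 and Sptssb had 1 to 3 counts over the brain libraries and means of 36.4 ± 25.4, 27.9 ± 16.1, 35.96 ± 26.01, 33.9 ± 16.1, 32.7 ± 14.2, 22.9 ± 9.802, 36.7 ± 13.9 and 33.6 ± 22.98 CPM in the tumor (SD, n = 4). Cdhr2 and Alpi are genes of the intestinal brush border, Vsig1 of gastric epithelium and Dsg2 of desmosomes. Elf3, an epithelial transcription factor, and Dmbt1, a secreted mucosal protein, had 70.6 ± 35.8 and 163 ± 88.2 CPM in the tumor and fell by 11.25 and 10.87 on the log2 scale. Tumor replicate 5 was the lowest of its group for Krt19, Krt8, Epcam, Elf3 and Dmbt1. Ecm1, a secreted matrix protein, belonged with the largest falls by difference in CPM (162 ± 42.5 against 985 ± 171 CPM).

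Markers of other cells of the tumor differed less evenly. Pancreatic acinar genes were lower for 6 of 12, at sums of 4.28, 3.04, 5.04 and 5.596 CPM in the brain and 18.4, 23.5, 27.1 and 109.7 CPM in the tumor, most in replicate 5, and Prss2, a trypsinogen gene, had 12.7, 16.1, 8.31 and 18.8 CPM there. Fibroblast genes were lower for 4 and higher for 1 of 14, with Col3a1, a fibrillar collagen, at 8.33, 0.0967, 0.553 and 2.398 CPM in the brain and 333, 16.98, 100.2 and 6.55 CPM in the tumor. Of 12 monocyte markers 4 were lower and 2 higher, among the latter Ly6c2 (edgeR log2 fold change 5.04, adjusted p = 1.88e-08). Csf1r, shared by monocytes and macrophages, did not pass (602 ± 442 and 547 ± 173 CPM, SD, n = 4). Of 13 dendritic cell markers 1 was higher and 3 were lower. T and NK cell markers were low in all libraries, with sums of 8.49, 4.39, 9.76 and 7.97 CPM in the brain and 35.1, 5.84, 5.74 and 1.74 CPM in the tumor, where replicate 1 held most, and were higher for 1 and lower for 7 of 16 (none with only the 8 libraries in the fit). B cell markers were higher for 2 and lower for 5 of 14, and the immunoglobulin gene Igkc had 395, 17.05, 0.506 and 93.5 CPM in the tumor. Of 13 eosinophil and mast cell markers 1, Kit, was higher and 3 were lower. Red cell markers were higher for 2 and lower for 0 of 9, with sums of 95.6, 42.1, 111 and 112 CPM in the brain and 11.9, 14.4, 37.3 and 70.4 CPM in the tumor. Of 10 platelet markers 2, Pf4 and Ppbp, were lower, and the others did not pass. Platelet sums were 7.44, 15.6, 13.3 and 6.396 CPM in the brain and 215, 29.1, 144 and 36.4 CPM in the tumor. Col3a1 did not pass without brain replicate 3, 4 or 5 or tumor replicate 1 (adjusted p = 0.0547 to 0.116, edgeR). Pancreatic acinar members lower in the brain numbered 1 with the lane as a factor and 2 without tumor replicate 5. Fibroblast members lower in the brain numbered 1 without brain replicate 3 or tumor replicate 1 or without the 3 libraries and 2 with the replicate number as a block. Monocyte members higher in the brain numbered 1 without the 3 libraries and 4 with upper-quartile scaling or by DESeq2, and those lower in the brain numbered 1 without the 3 libraries. Dendritic cell members higher in the brain numbered 2 without the 3 libraries, and those lower in the brain numbered 6 without brain replicate 3 or by DESeq2. T and NK cell members lower in the brain numbered 1 without the 3 libraries, 3 without tumor replicate 1 and 4 without brain replicate 2 or 3, with the replicate number as a block or with the lane as a factor. B cell members higher in the brain numbered 4 with the replicate number as a block, and those lower in the brain numbered 1 with the 8 libraries fitted alone or without the 3 libraries, 2 without brain replicate 5, with upper-quartile scaling or with the replicate number as a block and 3 without tumor replicate 1 or 3 or with the lane as a factor. Eosinophil and mast cell members higher in the brain numbered 0 without the 3 libraries, and those lower in the brain numbered 1 without the 3 libraries. Erythroid members higher in the brain numbered 0 with the 8 libraries fitted alone or without the 3 libraries, 4 with the replicate number as a block, 5 with upper-quartile scaling and 7 without tumor replicate 5. Platelet members higher in the brain numbered 1 without the 3 libraries, and those lower in the brain numbered 0 without the 3 libraries and 4 with the lane as a factor.

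P2rx7, the purine receptor that the study blocked on brain macrophages, had 3.09, 38.9, 28.5 and 12.4 CPM in the brain and 41.98, 37.96, 51.8 and 22.96 CPM in the tumor. The libraries overlapped and the difference did not pass (edgeR log2 fold change -0.90, SE 0.76, adjusted p = 0.438). Set beside the other sources, which were not tested here, the granule sums of 76513 ± 17861 CPM in the brain and 10188 ± 3092 CPM in the tumor (SD, n = 4) lay above and below the 36342 ± 3007 CPM of circulating neutrophils of tumor mice, the 28743 ± 4673 CPM of liver neutrophils and the 21682 ± 5820.1 CPM of circulating neutrophils of sham mice. The mature neutrophil sums were 71189 ± 13131 CPM in the brain, 62254 ± 6632 CPM in the circulation of tumor mice, 50760.5 ± 8548 CPM in the liver and 39547 ± 6863 CPM in sham mice, and the tumor had the lowest mean (13721 ± 6017 CPM). For MHC class II the tumor had the highest mean, with 7126 ± 3336 CPM, followed by circulating neutrophils of sham mice with 3654 ± 1153 CPM and liver neutrophils with 2986 ± 565 CPM. The circulation of tumor mice had 855 ± 369 CPM and the brain 649.99 ± 304 CPM. B cell marker sums were 2020 ± 664 CPM in the circulation of sham mice and 135 ± 37.2 CPM in that of tumor mice. They were 173 ± 144 CPM in the liver, 415 ± 564 CPM in the tumor and 75.2 ± 36.6 CPM in the brain. The part of B cells in the class II sums was not tested.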

How the data were processed

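The authors deposited raw counts per gene for the 20 libraries, and mm10 and DESeq2 are named in the submitters' processing notes, while no source used here names the aligner or the counting tool. SMART-Seq cDNA does not mark strand, so overlapping genes and close paralogs may share reads. A second deposited table of transformed values was not used. Of 51918 entries 6 were identical repeats, and 28762 of 51912 genes had a count in at least 1 library and were tested.

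The counts, scaled by TMM, were fitted with edgeR 4.0.16 (R 4.3.3) in one quasi-likelihood model of the 5 groups with 15 residual degrees of freedom, and brain was contrasted with tumor by a two-sided test with Benjamini-Hochberg adjustment over all tested genes. A gene was called at an adjusted p under 0.05 and a log2 fold change of 2 in size, as in the study's methods. CPM values are TMM-scaled, and each standard error is the fold change divided by the root of its F statistic. With 49942921 to 54472378 counts in each of the 8 libraries, 3 counts over a group, the floor used for bounds, correspond to 0.0158 CPM in the brain and 0.0112 CPM in the tumor, and intervals cover counting error only at a level of 95%. Data were also simulated from each gene's mean over the 20 libraries and its fitted spread. There 39 of 50 genes raised 8-fold, 40 of 50 raised 32-fold, 28 of 50 lowered 8-fold and 43 of 50 lowered 32-fold were called, and 5 of 27533 unchanged genes. Far fewer genes were changed than were called in the real data, and no library was made to stand apart. The simulation therefore does not test the scaling or give the rate of false calls here.

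The 33 program lists and 18 cell type lists, and the rule for named genes, were chosen with earlier results of these data known. The rule took the 15 largest rises and falls at 20 CPM or more without overlap, the 10 largest differences in CPM each way, up to 6 passing members of each program list and 2 of each cell type list by level, and Itgam, Ly6g, Ptprc, Ccr2, P2rx7 and Cd274, with predicted genes left out of the first parts. Outside the rule, Atf3, Bnip3, Ccl6, Cebpd, Cebpe, Chil3, Cxcl10, Cxcl2, Dusp4, Dusp5, Egln3, Egr2, Egr3, Gbp5, Hif1a, Hk3, Il1b, Il1r2, Irf5, Irf8, Klf4, Maff, Mpo, Myc, Nos2, Nr4a2, Pfkfb4, Rab27b, Runx1, Runx3 and Tcf7l2 were named after their values were seen. Alternatives were other scalings, a filter on low counts, DESeq2 1.42.0, the 8 libraries alone, the replicate number or the sequencing lane as a factor and leaving out single libraries. Leaving out 3 libraries together was added after seeing the data. A few genes are not reported here.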

Additional observations from a re-analysis of the deposited data

Results flagged for a closer look

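In 58 of 608 sets of 4 libraries, over the 253 named genes and 51 list sums, the extreme library stood apart by Dixon's ratio. For independent, normally distributed values chance does so in about 1 in 20 sets. CPM values need not be normal, and the sums share genes with the named members. The 58 are therefore not to be read as an excess over chance. The values below are CPM, with the range of the other 3 libraries of the group in brackets, and no explanation was tested. Brain replicate 2 was the highest of its group, at 908 for Aldoa (673 to 691), 306 for Atf3 (62.6 to 101), 46.98 for Hgf (18.6 to 20.8), 7559 for Mmp9 (5988 to 6162), 987 for Padi4 (608 to 656) and 1.05 for Ppbp (0.0193 to 0.0216). It also had 4271 for the protease and matrix sum (3643 to 3750.2). Brain replicate 2 was the lowest of its group, at 26.3 for Nos2 (93.1 to 102). Brain replicate 3 was the highest of its group, at 79.02 for Clec4n (38.7 to 40.2), 1802 for Ctsb (594 to 716), 293 for Ctsc (75.1 to 105), 880.04 for Ctss (320.5 to 378), 90.8 for Irgm1 (28.7 to 37.3) and 20.4 for Myc (0.799 to 4.12). It also had 14.1 for Snap25 (0 to 0.234), 10678 for the lysosome and phagocytic sum (6378 to 7068), 5364 for the lipid handling sum (3332 to 3628), 7177 for the macrophage sum (1738 to 2633) and 63.1 for the neuron sum (1.14 to 11.7). Brain replicate 3 was the lowest of its group, at 8437 for Retnlg (13518 to 14293) and 14106 for the redox and iron sum (17965 to 18313). Brain replicate 4 was the highest of its group, at 123 for Clu (13.6 to 24.3), 0.276 for Dmbt1 (0 to 0.0432), 664 for Enpp2 (17.2 to 21.1), 8.71 for Mcm2 (1.896 to 2.64), 1648 for Ttr (18.3 to 108) and 2397 for the choroid plexus sum (39.4 to 133). Brain replicate 4 was the lowest of its group, at 14.01 for Hspa1b (18.8 to 18.9). Brain replicate 5 was the highest of its group, at 1.69 for Dusp4 (0.0224 to 0.2902). Tumor replicate 1 was the highest of its group, at 560.5 for Cxcl1 (19.9 to 68.7), 3.87 for Cxcr6 (0.131 to 0.692), 17.4 for Enpp2 (0.0169 to 2.72), 871 for Gpi1 (565 to 609.6), 10808 for the azurophil granule sum (6515 to 7147) and 4251 for the protease and matrix sum (2646 to 2912). It also had 35.1 for the T and NK cell sum (1.74 to 5.84). Tumor replicate 2 was the highest of its group, at 419.8 for Gbp2 (152 to 186), 81.5 for Gbp5 (33.6 to 39.6), 236 for Igtp (94.2 to 111), 176 for Irgm1 (103 to 107), 0.729 for Mpo (0 to 0.0298) and 0.393 for Smim5 (0 to 0.0506). Tumor replicate 3 was the lowest of its group, at 509 for Fcer1g (677 to 707) and 525 for Pla2g7 (674 to 689). Tumor replicate 5 was the highest of its group, at 549 for Anxa1 (449.8 to 458), 0.371 for Apod (0 to 0.0137), 17937 for Dusp1 (6329 to 8306), 48.8 for Ifitm6 (15.6 to 19.9), 906 for Mmp8 (113 to 242) and 14821 for the secondary and tertiary granule sum (8495 to 8836). It also had 109.7 for the pancreatic acinar sum (18.4 to 27.1). Where the other libraries had no count, 1 or 2 reads set a library apart, at 0.0425 for Alpi in brain replicate 4, 0.0216 for Cdhr2 in brain replicate 5, 0.0213 for Dsg2 in brain replicate 4, 0.0213 for Epcam in brain replicate 4, 0.0213 for Lypd8 in brain replicate 4, 0.0169 for Siglech in tumor replicate 5 and 0.0425 for Ugt2b34 in brain replicate 4 CPM.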

How the results depend on the processing

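The counts of called genes, 773 higher and 1098 lower in the brain, stayed within 1.5 times under most alternatives. With upper-quartile scaling 1321 were higher and 859 lower, and without brain replicate 3 and tumor replicates 1 and 3, an alternative chosen after seeing the data that leaves 5 of the 8 libraries, 433 and 585. With a single library left out the counts ranged from 564 to 806 higher and from 850 to 1232 lower. DESeq2's size factors gave 689 and 1217, the low-count filter 786 and 1218, DESeq2 930 and 1646, the 8 libraries alone 554 and 1082 and the lane as a factor 591 and 934. Of the 241 named genes past the test, 157 kept their call and direction in all 16 alternatives and 84 lost the call in at least 1, 69 of them without the 3 libraries and 1 under DESeq2. Atp5b turned from -0.46 to 0.018 on the log2 scale with upper-quartile scaling (adjusted p = 1, edgeR), which shifts all genes upward. Otherwise the cause was not tested.

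The brain and tumor libraries share the replicate numbers 2, 3 and 5. Deviations from the group means over 13715 genes correlated at 0.0163, 0.117 and 0.154 for these pairs. For numbers 3 and 5 the shared number was the best match of both libraries, with brain replicate 3 and tumor replicate 1 at 0.109. Brain replicate 2 correlated best with tumor replicate 5 (0.0294). No source used here ties the numbers to animals, so these values do not settle a pairing, and the main fit used none. With the replicate number as a block 700 genes were called higher and 1122 lower, and 11 of the 241 named genes no longer passed.

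Genes at few counts limit what can be said: a gene without a count in a group has only a bound, and T and NK cell, neuron and acinar sums rest on few molecules. From 250 pg of RNA per library, reads are amplified copies, so depth overstates the precision of low genes.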
